A study of Mus musculus with 10 samples.

Results

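Lost isolated H3K9ac peaks are narrow regions of histone H3 lysine 9 acetylation that stood alone in vehicle-treated mouse ES cells and had no counterpart in the neighbourhood after Kat2a inhibition. They were defined as DMSO peaks narrower than 700 bp, with no MB-3 peak within 20000 bp and no other DMSO peak within 5000 bp, and 2375 of the 11724 DMSO peaks met these limits (20.26%, Wilson 95% interval 19.54% to 20.99%). The members were chosen by measured values, namely the presence, width and spacing of peak calls in both lists, so their widths, spacing and loss are given as a description with no test.

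The cells were TNGA, a mouse ES line carrying a GFP reporter at a single Nanog allele, cultured in serum and LIF. They were exposed for 48 hours to 100 µM MB-3, a small-molecule inhibitor of the acetyltransferase Kat2a (Gcn5), or to DMSO alone, and every culture contained 0.1% DMSO by volume. H3K9ac was mapped by ChIP-seq in duplicate cultures that were merged into 1 peak list per treatment, and polyA RNA was sequenced from 3 cultures per treatment, labelled A, B and C. All samples came from the same line, and the labels do not say whether the lettered cultures were independent beyond being separate samples, so p-values measure the spread between these cultures.

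H3K9ac is found mainly at nucleosomes around active promoters and enhancers. Kat2a is the catalytic subunit of the SAGA and ATAC coactivator complexes and one of the main writers of this mark. In ES cells Kat2a and SAGA are known for their cooperation with Myc at promoters of growth and metabolic genes.

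The libraries expressed the markers of the labelled cell type. Pou5f1, the central transcription factor of pluripotency, had levels of 289, 317 and 291 RPKM in DMSO A, B and C and of 294, 319 and 290 RPKM in MB-3 A, B and C, where RPKM is a level per exon length and library size computed here from the deposited counts. The groups overlapped, and the 6 ES markers checked (Nanog, Pou5f1, Sox2, Esrrb, Zfp42 and Dppa3) had mean DMSO levels from 18.5 RPKM to 299 RPKM. Of 15 markers of other cell types, 13 were matched to the count table, and their summed level was 18.4, 15.4 and 26 RPKM in DMSO A, B and C and 15.1, 14.6 and 15.3 RPKM in MB-3 A, B and C. Ptprc, a defining marker of blood cells, stood at 0.00186 RPKM in DMSO. The most abundant of them in DMSO was T, a primitive streak factor, at a mean of 8.36 RPKM in DMSO and 2.26 RPKM in MB-3. Its levels were 7.14, 3.91 and 14 RPKM in DMSO and 2.02, 1.54 and 3.21 RPKM in MB-3. The log2 fold change of -1.89 ± 0.36 (SE) passed neither edgeR (Benjamini-Hochberg adjusted p = 0.0611) nor DESeq2. With 1 library left out it ranged from -2.23 to -1.29. Neurod1, a neuronal factor, went the other way, with 5.62, 5.71 and 5.11 RPKM in DMSO and 7.52, 7.51 and 7.02 RPKM in MB-3 (log2 fold change 0.42 ± 0.08, SE, adjusted p = 0.0485, edgeR with Benjamini-Hochberg adjustment), and it was the list's only call by edgeR. Mixl1, a primitive streak factor, had 0.697, 0.53 and 1.4 RPKM in DMSO and 0.193, 0.228 and 0.285 RPKM in MB-3, with a log2 fold change of -1.90 ± 0.35 that missed the threshold in edgeR (Benjamini-Hochberg adjusted p = 0.0507) and was called by DESeq2, and Eomes had a log2 fold change of -0.69 ± 0.23 that did not pass and was -0.33 without DMSO C. Pax6, a neural factor, had a log2 fold change of 0.38 ± 0.12 that did not pass the test.

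The sequence under the peaks was not read here, because their positions are on mm9 and the genome used here was GRCm38. RefSeq promoters on GRCm38.p6, which run from 250 bases before to 50 bases after the annotated start, are shown instead for 4 genes to which lost isolated peaks were assigned. Bcl11a was the only assigned gene whose RNA passed the test of MB-3 against DMSO. Csrp1 had the largest fold among assigned genes whose MB-3 levels all lay below the DMSO levels. Mff and Hdac2 stand for the mitochondrial and chromatin genes. Capitals mark CpG dinucleotides, the targets of DNA methylation whose density distinguishes CpG-island promoters from others, and each sequence runs 5′ to 3′ on the strand of its gene, which is the plus strand in all 4.
Bcl11a, chr11:24080445-24080744: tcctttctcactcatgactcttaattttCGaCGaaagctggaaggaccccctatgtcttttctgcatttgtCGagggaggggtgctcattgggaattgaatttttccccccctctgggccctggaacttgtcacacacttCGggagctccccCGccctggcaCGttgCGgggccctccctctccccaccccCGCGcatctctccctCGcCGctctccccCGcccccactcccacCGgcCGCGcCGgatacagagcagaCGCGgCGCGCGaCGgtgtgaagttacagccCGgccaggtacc
Csrp1, chr1:135728917-135729216: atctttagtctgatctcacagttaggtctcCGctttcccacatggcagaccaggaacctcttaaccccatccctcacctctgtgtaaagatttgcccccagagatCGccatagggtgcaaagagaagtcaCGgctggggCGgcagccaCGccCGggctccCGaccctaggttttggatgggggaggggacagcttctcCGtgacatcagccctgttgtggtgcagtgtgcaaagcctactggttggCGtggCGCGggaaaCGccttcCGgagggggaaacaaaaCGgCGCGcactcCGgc
Mff, chr1:82724640-82724939: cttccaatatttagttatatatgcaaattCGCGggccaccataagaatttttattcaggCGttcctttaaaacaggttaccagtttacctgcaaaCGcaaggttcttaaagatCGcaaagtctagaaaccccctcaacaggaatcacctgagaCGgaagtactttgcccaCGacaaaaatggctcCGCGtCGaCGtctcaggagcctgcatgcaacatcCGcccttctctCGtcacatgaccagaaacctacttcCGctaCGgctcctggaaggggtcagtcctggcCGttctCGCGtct
Hdac2, chr10:36974294-36974593: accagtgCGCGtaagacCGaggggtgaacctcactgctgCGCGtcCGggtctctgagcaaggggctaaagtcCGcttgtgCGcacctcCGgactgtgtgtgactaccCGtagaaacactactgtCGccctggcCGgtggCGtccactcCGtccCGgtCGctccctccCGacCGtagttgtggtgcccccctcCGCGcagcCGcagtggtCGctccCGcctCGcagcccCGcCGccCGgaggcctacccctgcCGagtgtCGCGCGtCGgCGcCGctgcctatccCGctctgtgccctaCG
These windows held 23 CpGs in Bcl11a, 17 in Csrp1, 18 in Mff and 36 in Hdac2. The GC content was 63%, 59.7%, 49% and 69.7%, in the same order. The ratio of observed to expected CpGs, in which 1 means as many CpGs as the base composition gives, was 0.815 for Bcl11a, 0.637 for Csrp1, 1.03 for Mff and 1.01 for Hdac2. Csrp1 and Mff each have 2 entries in the table, of which the first listed is shown.

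Promoters of the assigned genes as a group were CpG-rich. Of 380 assigned genes, 314 had a promoter in the table, and 240 of these (76.4%) had a GC content of at least 50% with an observed over expected CpG ratio of at least 0.6, against 34.1% of all 27025 promoters. The median ratio was 0.769 for genes of lost isolated peaks and 0.389 over all promoters. Genes assigned to kept narrow peaks (width under 700 bp and overlapping an MB-3 peak) reached 82.7%, genes of kept wide peaks (700 bp or more) reached 82%, and genes of lost peaks with an MB-3 peak within 20000 bp reached 78.7%. The Myc/Max E-box CACGTG, a palindrome that reads the same on both strands, was present in 36 of the 314 promoters (11.5%), in 11.6% of promoters of genes at lost peaks with an MB-3 peak within 20000 bp, in 16% of promoters of genes at kept narrow peaks, in 16.8% of those at kept wide peaks and in 7.24% of all promoters. It was not found in the 4 windows printed above. These shares describe the promoter windows of assigned genes, not the peaks, and their differences were not tested.

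The loss of a narrow, isolated peak was the common outcome in these lists. Of 3396 DMSO peaks that were narrow and isolated, 2375 (69.94%, Wilson 95% interval 68.37% to 71.45%) had no MB-3 peak within 20000 bp, 611 (17.99%) overlapped an MB-3 peak by at least 1 bp, and 410 (12.07%) overlapped none but had one within that distance. The rule was also applied in mirror image, asking for narrow isolated MB-3 peaks with no DMSO peak within 20000 bp. It found 39 of all 4673 MB-3 peaks (0.8346%, 0.6111% to 1.139%), beside 20.26% of all DMSO peaks by the original rule. Among the 7521 DMSO peaks that overlapped no MB-3 peak, lost isolated peaks made up 31.58%. A further 670 DMSO peaks had no MB-3 peak within 20000 bp but were at least 700 bp wide, and 1647 were narrow but had another DMSO peak close by. Each list came from merged duplicates and holds positions only, so there are no replicates between which the lists could be tested, and a missing call does not measure an absence of acetylation, since read depth and peak height were not analysed here. The intervals cover counting error only.

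The widths of lost isolated peaks filled the range below the limit that chose them. Their median was 401 bp, beside 422.5 bp over all DMSO peaks under 700 bp, with quartiles of 322 bp and 513.5 bp and extremes of 266 bp and 699 bp. Kept peaks under the same limit had a median of 532 bp (n = 1644), and lost peaks with an MB-3 peak within 20000 bp, of any width, had a median of 426 bp (n = 2829). The shortest peak in the whole DMSO list was also 266 bp. The 39 mirror peaks of the MB-3 list ranged from 250 bp to 438 bp, with a median of 281 bp.

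Among narrow isolated DMSO peaks the lost share was lower in each wider class. It was 81.7% of 475 peaks under 300 bp, 77.1% of 1024 peaks from 300 bp to under 400 bp, 70.8% from 400 bp to under 500 bp, 65.6% from 500 bp to under 600 bp and 49.2% from 600 bp to under 700 bp. The kept share took the opposite course, from 4.42% in the narrowest class to 40.8% in the widest. The class with the most members was 300 bp to under 400 bp, with 789, beside 388 under 300 bp and 258 from 600 bp to under 700 bp.

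**Figure D1:**
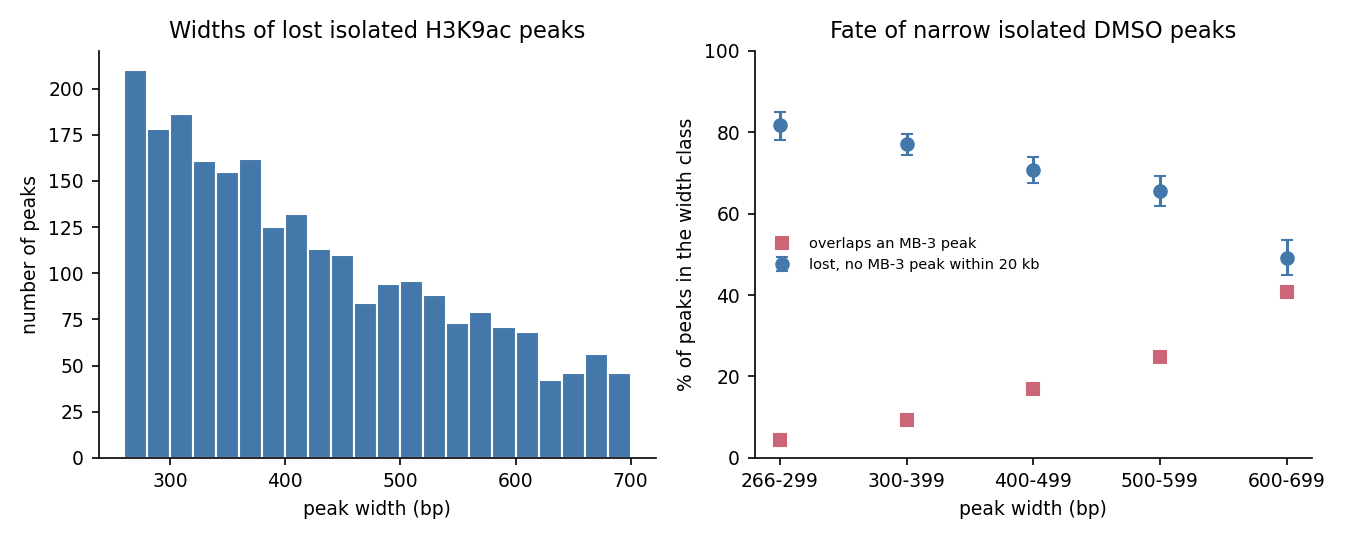
Left, number of lost isolated peaks by width in bp, in bins of 20 bp. Right, percent of narrow isolated DMSO peaks in each width class that were lost with no MB-3 peak within 20 kb (circles with Wilson 95% intervals) or that overlapped an MB-3 peak (squares). The lost share falls from 81.7% to 49.2% with width while the kept share climbs from 4.42% to 40.8%.

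Among the narrowest members, at 266 bp, were the peaks at chr1:75502630-75502895 (mm9), assigned to Obsl1, at chr1:135975314-135975579, assigned to the antiproliferative gene Btg2, and at chr1:168082896-168083161, assigned to Gpa33. Among the widest, at 699 bp, were chr4:62021870-62022568 and chr6:56664917-56665615, and the nearest DMSO peak outside the width limit was chr4:4482800-4483499, at 700 bp. For the distance to MB-3 peaks, the member closest to the limit was chr5:100927110-100927479, at 20125 bp, and the closest peak beyond it was chr4:122673444-122674011, at 19972 bp. For isolation, the member at chr11:30649940-30650244, assigned to the proteasome activator gene Psme4, stood 5041 bp from the next DMSO peak, whereas chr8:73278718-73279139 was left out at 4897 bp.

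Many members lay far beyond the distances that the rule asked for. The median distance to the nearest MB-3 peak was 123190 bp, and 1339 members (56.4%) had none within 100000 bp, 442 (18.6%) none within 500000 bp and 208 (8.76%) none within 1000000 bp. The same held for 22%, 7.26% and 3.52% of all DMSO peaks. The median distance to another DMSO peak was 54920 bp. The most remote member from any other DMSO peak was chrX:126284400-126285021, at 4308792 bp, followed by chr5:81984494-81985004, at 4244531 bp. The farthest from any MB-3 peak was chrX:82293931-82294230, at 7537102 bp.

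The closest DMSO neighbour of a lost isolated peak was most often another lost isolated peak. This was so for 909 members (38.3%), while the class makes up 20.3% of all DMSO peaks. Kept wide peaks were the neighbour of 403 members (17%) and make up 21.8% of the list, and lost peaks with an MB-3 peak within 20000 bp were the neighbour of 325 (13.7%) and make up 24.1%. The rule sets minimum distances to both kinds of peak, so these shares follow in part from how the members were chosen.

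Lost isolated peaks were found on every autosome and on X. They made up 2293 of 11417 autosomal DMSO peaks (20.1%, Wilson 95% interval 19.4% to 20.8%) and 82 of 303 peaks on X (27.1%, 22.4% to 32.3%). Conversely, 36.1% of autosomal peaks (35.2% to 37%) and 26.1% of X peaks (21.5% to 31.3%) overlapped an MB-3 peak. Among autosomes the share was highest on chromosomes 16 (26.1%, 21.9% to 30.8%) and 14 (25.3%, 20.9% to 30.3%), and lowest on chromosomes 17 (16.9%, 14.3% to 19.9%) and 7 (17%, 14.7% to 19.6%). By number, chromosomes 11, 2 and 4 held the most members, with 186, 175 and 173. None of the 4 DMSO peaks on Y was a member, for which the 95% interval reaches 49%. Differences between chromosomes were not tested, since the loss is part of the rule.

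**Figure D2:**
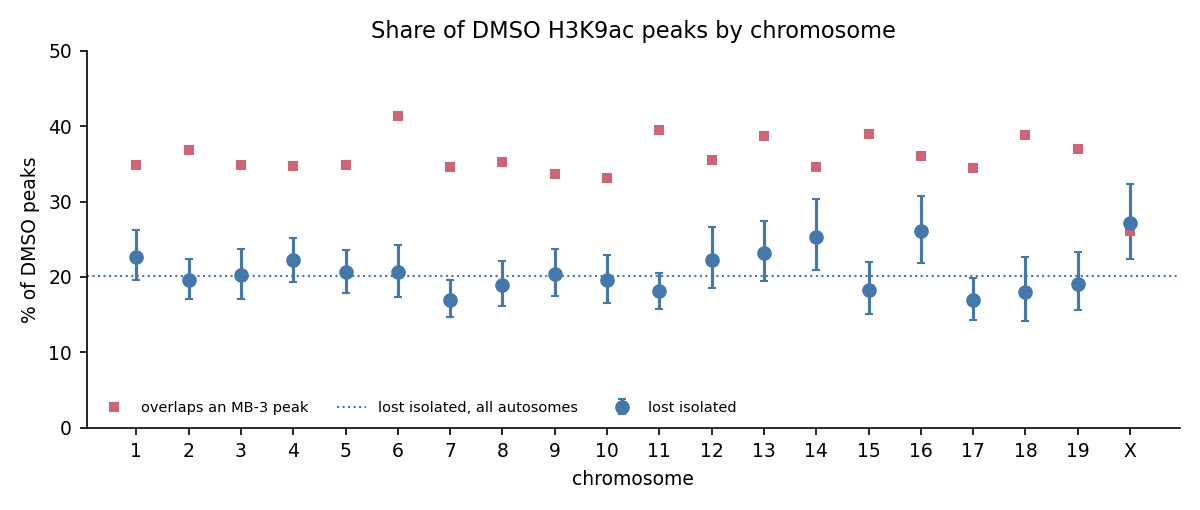
Percent of DMSO peaks on each chromosome (x axis) that were lost isolated (circles with Wilson 95% intervals) or overlapped an MB-3 peak (squares), with the lost isolated share over all autosomes as a dotted line at 20.1%. Chromosome Y, with 4 peaks, is not drawn. X is the chromosome where the lost isolated share, 27.1%, is not below the kept share, 26.1%.

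Nearby genes were taken from the nearest-gene annotation that accompanies the peak lists, matched by exact position, and for the DMSO list the part used here covered chromosome 1, chromosome 10 and chromosome 11 up to position 100944504. It held 399 of the members (16.8%), with 141 on chromosome 1, 119 on chromosome 10 and 139 on chromosome 11, and gave a gene for 398 of them. These were 380 genes, of which 18 had 2 lost isolated peaks and 352 had no other peak of either list assigned. Whether a given peak lies in a promoter, exon or intron was not determined, since no annotation of mm9 was used here. Gene names matched 377 rows of the count table, and 368 of these had enough counts to be tested. The 9 genes that were not tested were all under 0.1 RPKM in DMSO, among them Wnt10a, a Wnt ligand, at 0.0421 RPKM, and Sntg1, a syntrophin, at 0.0106 RPKM. Of the 377 matched genes, 136 overlap a gene on the opposite strand, where reads cannot be assigned with certainty because the use of strand in counting is not given in the sources used here.

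Genes assigned to lost isolated peaks were expressed, mostly at low to moderate levels. In DMSO, 341 of 377 (90.5%) reached 1 RPKM, beside 46.5% of all genes in the table, and over tested genes alone the shares were 92.7% and 71.2%. By mean DMSO level, 233 of the 341 lay from 1 RPKM to under 10 RPKM, 108 lay above, and none of the 377 reached 100 RPKM. The median level over the 368 tested genes was 4.97 RPKM in DMSO, with quartiles of 2.5 RPKM and 11.2 RPKM, beside 3.6 RPKM (0.738 RPKM to 12.6 RPKM) over all 20027 tested genes. Genes of the other classes compared, on the same chromosomes, stood higher. The median DMSO level was 14.3 RPKM for kept narrow peaks and 13 RPKM for those kept narrow peaks that were also isolated. It was 12.4 RPKM for lost peaks with an MB-3 peak within 20000 bp, and 20.5 RPKM for kept wide peaks. Genes of the remaining lost peaks, which were wide or had another DMSO peak close by, were not compared. The median over the assigned genes was 5.094, 4.905 and 5.055 RPKM in DMSO A, B and C, and 5.068, 4.905 and 4.969 RPKM in MB-3 A, B and C, so that the 6 libraries overlapped. Within the members, genes of peaks under 400 bp had a median of 4.24 RPKM and genes of wider peaks 6.15 RPKM. Genes whose peak had an MB-3 peak between 20000 bp and 50000 bp away had 6.37 RPKM. The median was 4.47 RPKM for those with one between 50000 bp and 200000 bp away, and 4.54 RPKM for those with none within 200000 bp. No test was made across genes, which are not replicates, and a gene can belong to more than 1 class.

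**Figure D3:**
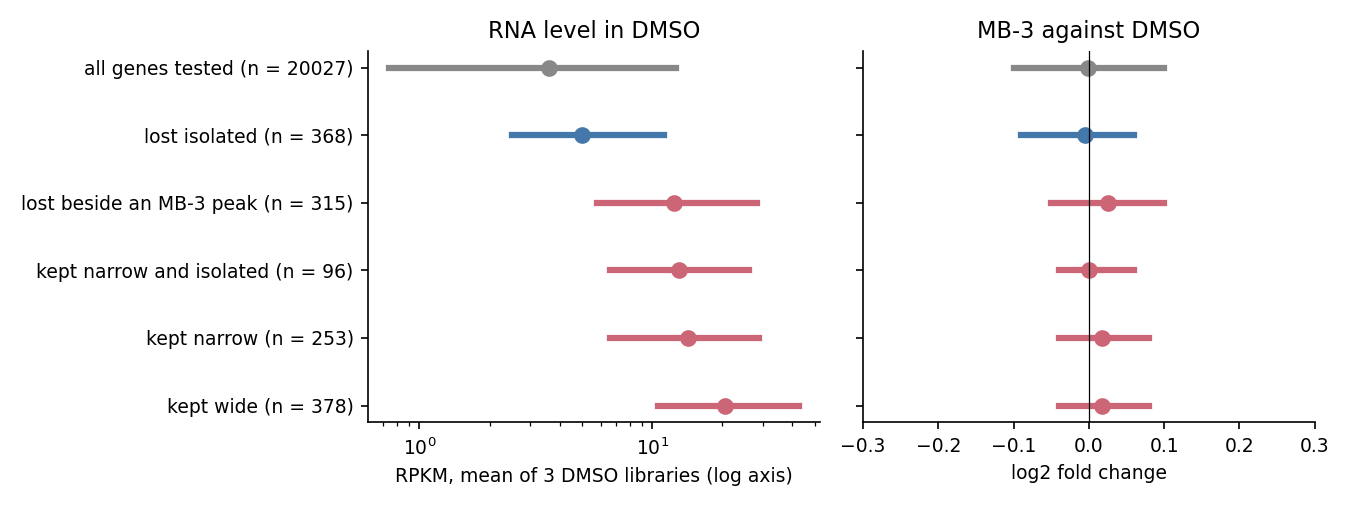
Median (point) and quartiles (bar) of the RNA level in DMSO in RPKM on a log axis (left) and of the log2 fold change of MB-3 against DMSO (right), for all tested genes and for genes assigned to each class of DMSO peak, with n the number of genes tested. The lost isolated class has the lowest median level among the peak classes shown, 4.97 RPKM, and all the median fold changes lie close to 0.

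The RNA of these genes moved little after MB-3. The median log2 fold change over the 368 tested genes was -0.005, with quartiles of -0.09 and 0.06 and extremes of -0.97 and 0.57, and all of them stayed within 2-fold, as did 99.1% of all tested genes. In the quasi-likelihood test of edgeR, with p-values adjusted over all 20027 genes by Benjamini-Hochberg, 1 assigned gene was higher in MB-3 and 0 were lower at the 0.05 threshold, where the background is 0.205% of all genes. At an unadjusted p under 0.05 there were 45 assigned genes (12.2%), 18 higher and 27 lower, beside 10.9% of all genes. DESeq2 called 1 assigned gene higher and 1 lower, beside 0.959% of all genes. An edgeR fit with replicate letter as a block called 10 higher and 25 lower (9.51%), beside 7.12% of all genes. All 3 MB-3 levels lay above all 3 DMSO levels in 28 assigned genes (7.61%) and below them in 33 (8.97%), where the background over all genes is 8.22% and 7.37%. Over these genes the standard error had a median of 0.08 on the log2 scale. As these are bulk samples, fewer cells that express a gene and less RNA per cell cannot be told apart.

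**Figure D4:**
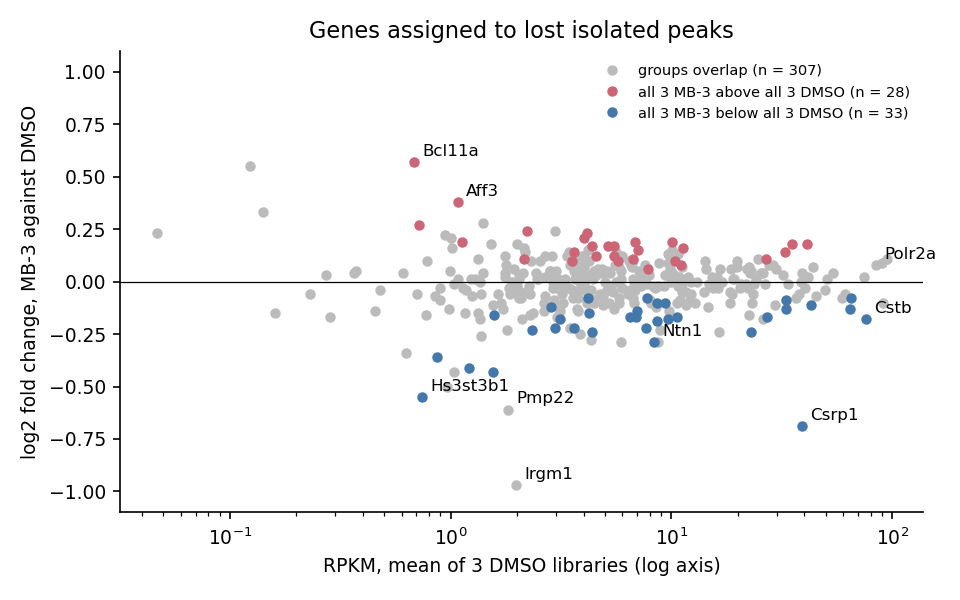
Log2 fold change of MB-3 against DMSO (y axis) against the mean DMSO level in RPKM on a log axis (x axis), with 1 point for each of the 368 tested genes assigned to a lost isolated peak, coloured by whether the 3 MB-3 and 3 DMSO libraries overlap. The points spread around 0 at every level, with 28 genes apart upwards and 33 downwards, and Irgm1, Csrp1, Pmp22 and Bcl11a are the largest changes.

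Bcl11a, which encodes a zinc finger transcription factor with roles in neural and lymphoid development, was the gene that passed the test. Its levels were 0.673, 0.758 and 0.624 RPKM in DMSO A, B and C and 1.07, 1.09 and 0.897 RPKM in MB-3 A, B and C. The groups did not overlap, and the log2 fold change was 0.57 ± 0.10 (SE, n = 3 per group), with a Benjamini-Hochberg adjusted p = 0.0485 by edgeR. Its peak, chr11:23981945-23982228 (mm9), is 284 bp wide and lies 775780 bp from the nearest MB-3 peak, and the gene spans chr11:24078056-24174123 on GRCm38. Bcl11a overlaps a gene on the opposite strand, so part of its count may belong there. The call was lost without DMSO A, DMSO C, MB-3 A or MB-3 B, with log2 fold changes of 0.56, 0.51, 0.54 and 0.52, and was kept without DMSO B (0.65) or MB-3 C (0.66).

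The next largest positive changes among genes with separate groups did not pass the test. They were Aff3, a subunit of super elongation complexes, at a log2 fold change of 0.38 ± 0.12 (SE), Rabgap1l at 0.27 ± 0.08, Zbtb2, a zinc finger repressor, at 0.24 ± 0.07, and the deubiquitinase gene Usp44 at 0.23 ± 0.09. Zbtb2, for example, had levels of 2.24, 2.24 and 2.18 RPKM in DMSO and of 2.56, 2.51 and 2.76 RPKM in MB-3, and it has 2 lost isolated peaks. Aff3 and Rabgap1l overlap a gene on the opposite strand. The log2 fold change of Usp44 was 0.14 without MB-3 A. The fit with replicate letter as a block called Aff3, Rabgap1l, Zbtb2 and Usp44 higher.

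On the other side, Csrp1, which encodes a LIM protein of the actin cytoskeleton, had levels of 35, 28.6 and 53.1 RPKM in DMSO A, B and C and of 23.7, 21 and 27.7 RPKM in MB-3 A, B and C. All MB-3 levels lay below all DMSO levels, but DMSO C stood well above the other libraries. The log2 fold change of -0.69 ± 0.17 (SE) did not pass (adjusted p = 0.151, edgeR with Benjamini-Hochberg adjustment), and it was -0.40 without DMSO C and -0.87 without DMSO B. Irgm1, an interferon-induced GTPase from a multigene family, had the largest change of any assigned gene, with 2.07, 1.2 and 2.66 RPKM in DMSO and 0.899, 0.886 and 1.25 RPKM in MB-3. Its groups overlapped, and the log2 fold change was -0.97 ± 0.23 (SE, adjusted p = 0.122, edgeR with Benjamini-Hochberg adjustment). Pmp22, a myelin protein gene, had the same order of DMSO libraries, with 1.61, 1.3 and 2.56 RPKM in DMSO and 1.08, 0.706 and 1.79 RPKM in MB-3. Its log2 fold change of -0.61 ± 0.29 (SE) did not pass, and it was -0.29 without DMSO C and -1.02 without MB-3 C. In Csrp1, Irgm1 and Pmp22, and likewise in Pid1 and Tmbim1, DMSO C was the highest DMSO library and DMSO B the lowest. The summed level of the other-cell markers had this order (18.4, 15.4 and 26 RPKM in DMSO A, B and C), and so did T (7.14, 3.91 and 14 RPKM), Eomes and Mixl1. Neurod1 (5.62, 5.71 and 5.11 RPKM) and Pax6 (2.04, 2.47 and 1.72 RPKM) were instead lowest in DMSO C. The order thus does not hold across the marker list, and any part of other cells in the result was not tested.

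Ntn1, the gene of the guidance cue netrin 1, had a smaller change with a tighter spread. Its levels were 8.33, 8.06 and 8.76 RPKM in DMSO and 6.79, 7.11 and 6.69 RPKM in MB-3. The groups were apart, and the log2 fold change of -0.29 ± 0.06 (SE) missed the threshold in edgeR (Benjamini-Hochberg adjusted p = 0.0841), while DESeq2 called it, with an adjusted p = 0.00635. Hs3st3b1, a heparan sulfate sulfotransferase gene, stood at 0.727, 0.747 and 0.76 RPKM in DMSO and at 0.556, 0.44 and 0.532 RPKM in MB-3 (log2 fold change -0.55 ± 0.14). Its peak, at 266 bp, has the lowest width of the list and lies 1294180 bp from the nearest MB-3 peak. Pid1, Tmbim1 and Dnajc12 were also apart downwards, with log2 fold changes of -0.43 ± 0.13, -0.41 ± 0.12 and -0.36 ± 0.14. Without DMSO C, the value was -0.26 in Pid1 and -0.27 in Tmbim1. The fit with replicate letter as a block called Ntn1, Hs3st3b1, Pid1 and Tmbim1 lower, but not Dnajc12. Without DMSO B, 9 assigned genes were called lower and 2 higher, and 520 of all 20027 genes were called. Those lower were Irgm1, Csrp1, Tmbim1, Pid1, Arl4c, Ptpn14, Sept8, Ntn1 and Lpgat1, and those higher were Bcl11a and Aff3.

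**Figure D5:**
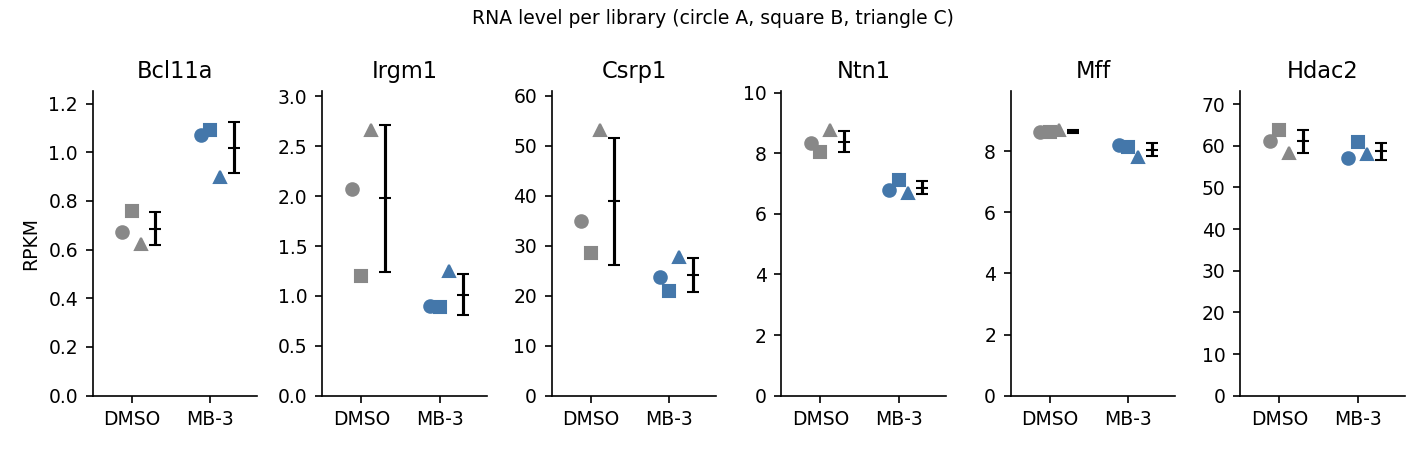
RNA level in RPKM (y axis, from 0, its own scale in each panel) in each DMSO and MB-3 library (x axis) for 6 genes assigned to lost isolated peaks, with the mean and SD of 3 libraries as a black bar. Bcl11a is higher in every MB-3 library, Csrp1, Ntn1 and Mff are lower in every MB-3 library, and Irgm1 and Hdac2 overlap between the groups.

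The 5 most abundant transcripts among the assigned genes did not pass the test. Polr2a, the largest subunit of RNA polymerase II, had levels of 90.9, 85.4 and 76.5 RPKM in DMSO and of 91.4, 88.8 and 86.3 RPKM in MB-3, which overlapped. Akap12, a scaffold protein gene, had 101, 88 and 93.6 RPKM in DMSO and 105, 101 and 98.4 RPKM in MB-3. Psmb6, a catalytic proteasome subunit, and Igfbp2, an IGF-binding protein, also overlapped between the groups, with log2 fold changes of -0.10 ± 0.06 and 0.09 ± 0.06 (SE). Psmb6 was at -0.05 without MB-3 A, and Igfbp2 was at 0.03 without DMSO A. Cstb, the protease inhibitor cystatin B, had 76.2, 80.7 and 70.5 RPKM in DMSO and 60.2, 69.9 and 70.5 RPKM in MB-3. Its log2 fold change was -0.18 ± 0.08, and -0.11 without MB-3 A.

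No gene for a mitochondrial protein passed the test. The list was drawn from the assigned genes, and all 28 on it were tested, with 12 positive and 16 negative log2 fold changes. The median was -0.00 beside -0.001 over all tested genes, and the range was -0.23 to 0.18. Of the 28, 1 had an unadjusted p under 0.05 in edgeR, beside 10.9% of all genes. DESeq2 called none of them. The list has its highest DMSO level in Nipsnap1, at 41.4 RPKM. Mff, the receptor that recruits the fission machinery to mitochondria, had levels of 8.61, 8.62 and 8.68 RPKM in DMSO and of 8.2, 8.14 and 7.81 RPKM in MB-3. The MB-3 libraries lay below the DMSO libraries, yet the log2 fold change was only -0.10 ± 0.05 (SE). The same separation held for Marc2 (-0.23 ± 0.08) and Suox, sulfite oxidase (-0.12 ± 0.10), so that 4 of 28 members in all were apart downwards and 0 upwards, where the background over all genes is 7.37% and 8.22%. Fh1, fumarate hydratase, had 24.3, 26.4 and 25.6 RPKM in DMSO and 25.4, 26.6 and 26.5 RPKM in MB-3. Sdhc, a subunit of complex II, had a log2 fold change of 0.03 ± 0.06.

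Chromatin and transcription genes gave no call either, with 10 positive and 8 negative log2 fold changes among 18. The median was 0.01 and the range -0.14 to 0.16, and 0 had an unadjusted p under 0.05 in edgeR, beside 10.9% of all genes. DESeq2 called none of the 18. Hdac2, a histone deacetylase, had levels of 61.1, 63.7 and 58.3 RPKM in DMSO and of 57, 61 and 58.1 RPKM in MB-3, which overlapped. Its peak, chr10:36694387-36695084 (mm9), is 698 bp wide and lies 2691956 bp from the nearest MB-3 peak. Rnf2, the ubiquitin ligase of Polycomb repressive complex 1, had 38.6, 39 and 38.2 RPKM in DMSO and 38.2, 38.6 and 38.7 RPKM in MB-3. Sirt1 and Sirt6, both NAD-dependent deacylases, had log2 fold changes of 0.11 ± 0.08 and 0.00 ± 0.07 (SE). The value of Sirt1 was 0.01 without DMSO C and 0.18 without DMSO B.

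The list of pluripotency regulators and signalling genes was also drawn from the assigned genes, and 17 of 18 were tested. Its 1 call, where the background is 0.205%, was Bcl11a, described above by its roles in neural and lymphoid development. The list had 10 positive and 7 negative log2 fold changes and a median of 0.05. At an unadjusted p under 0.05 there were 3 of the 17, beside 10.9% of all genes. Tfcp2l1, a transcription factor of naive pluripotency with 2 lost isolated peaks, had levels of 30, 25.1 and 26.6 RPKM in DMSO and of 24.9, 22.9 and 24.8 RPKM in MB-3. The groups were just apart, and the log2 fold change of -0.17 ± 0.07 (SE) did not pass the test and was -0.10 without DMSO A. Fzd7, a Wnt receptor, lay the other way, with 35.3, 35.7 and 34.1 RPKM in DMSO and 40.3, 37.5 and 40.7 RPKM in MB-3 (log2 fold change 0.18 ± 0.06). Zfp281, a zinc finger regulator of ES cell state, was also apart upwards, at 0.11 ± 0.06. Prdm14, which represses differentiation in naive cells, had 7.4, 7.62 and 6.4 RPKM in DMSO and 7.52, 7.19 and 7.46 RPKM in MB-3. The Hedgehog effectors Gli1 and Gli2 had log2 fold changes of -0.14 ± 0.08 and 0.13 ± 0.07, and Lin28b, an inhibitor of let-7 maturation, 0.08 ± 0.06. When 1 library was left out, Gli1 ranged from -0.19 to -0.08, Gli2 from 0.08 to 0.21 and Lin28b from 0.05 to 0.11.

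The remaining 3 lists drawn from the assigned genes gave 0 calls by edgeR and by DESeq2. Over all genes, edgeR called 0.205% and DESeq2 0.959%, and 10.9% had an unadjusted p under 0.05 in edgeR. DNA repair and cell division genes (17 tested) had log2 fold changes from -0.22 to 0.16 with a median of -0.01, and 2 at an unadjusted p under 0.05. Rad50, of the MRN complex that senses double-strand breaks, had 11.6, 11.1 and 11.3 RPKM in DMSO and 13.2, 12.1 and 12.6 RPKM in MB-3, which were apart, and Cenpw, a centromere protein, had 3.58, 3.49 and 3.81 RPKM in DMSO and 3.32, 2.91 and 3.07 RPKM in MB-3, apart the other way. RNA processing and translation genes (14 tested) had a median of 0.03 and a range of -0.14 to 0.14, with 0 at an unadjusted p under 0.05. Membrane traffic genes (24 tested) had a median of -0.01 and a range of -0.24 to 0.12, with 2 at an unadjusted p under 0.05. In that list Sar1b, the GTPase that assembles COPII coats, had 21.4, 23.7 and 23.6 RPKM in DMSO and 19.2, 18.9 and 20.1 RPKM in MB-3, a log2 fold change of -0.24 ± 0.07 that did not pass the test.

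Of 21 genes of SAGA, a complex that contains the MB-3 target Kat2a, 3 could be assigned a lost isolated peak. Most of the others lie on chromosomes that the annotation used here does not cover. The 3 were Tada1, a core subunit, at 1.19, 1.34 and 1.35 RPKM in DMSO and 1.22, 1.3 and 1.4 RPKM in MB-3, Usp22, the deubiquitinase, at 20.6, 18.7 and 20.4 RPKM in DMSO and 20.2, 21.1 and 21.3 RPKM in MB-3, and Sf3b5, at 13.3, 16.3 and 14.6 RPKM in DMSO and 14.1, 15.1 and 14.8 RPKM in MB-3. All 3 overlapped between the groups. Over the 21 genes, 13 log2 fold changes were positive and 8 negative, and the median was 0.01. None passed edgeR's test, and 2 had an unadjusted p under 0.05, beside 10.9% of all genes. DESeq2 called 1 of the 21 higher, beside 0.959% of all genes called by it. This was Sf3b3, with a log2 fold change of 0.22 ± 0.06, on a chromosome outside the annotation used here. Kat2a itself had 36.1, 39.9 and 36.4 RPKM in DMSO and 35.8, 37.7 and 38.3 RPKM in MB-3. Of 17 genes of the pluripotency network, Tfcp2l1 and Prdm14 were assigned a lost isolated peak, and most of the others could not be assigned a peak. The 1 gene called lower in the network by edgeR, where the background is 0.205% of all genes, was Tbx3, a transcription factor of naive pluripotency. It lies on chromosome 5, for which no peak annotation was used here. Its log2 fold change was -0.40 ± 0.06 (SE, adjusted p = 0.0243, edgeR with Benjamini-Hochberg adjustment). DESeq2 also called Tcl1, a naive pluripotency marker, lower (log2 fold change -0.36 ± 0.07, edgeR Benjamini-Hochberg adjusted p = 0.0549). Of the 17 network genes, 5 had an unadjusted p under 0.05 in edgeR, beside 10.9% of all genes. The groups were apart downwards in 5 and upwards in 2, where the background over all genes is 7.37% and 8.22%.

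Genes with 2 lost isolated peaks did not pass the test in any of the 18 cases. Their log2 fold changes ran from -0.29 in Slc35f5, a solute carrier with overlapping groups whose value ranged from -0.40 to -0.11 when 1 library was left out, to 0.24 in Zbtb2. Actr2, a subunit of the Arp2/3 actin nucleator, had a mean DMSO level of 50.8 RPKM and a log2 fold change of 0.01, and Irf1, an interferon-response transcription factor, had a mean of 12.8 RPKM and a log2 fold change of -0.10.

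Genes with separate groups were also counted in the other peak classes compared above. Among genes of lost peaks with an MB-3 peak within 20000 bp, 46 of 315 (14.6%) were apart upwards and 13 (4.13%) downwards, and among genes of kept wide peaks 46 of 378 (12.2%) and 16 (4.23%), compared with 7.61% and 8.97% among genes of lost isolated peaks and 8.22% and 7.37% over all tested genes. Genes of kept narrow peaks gave 11.1% upwards and 5.14% downwards, and those of them that were isolated 9.38% in both directions. The median log2 fold change of genes of lost peaks with an MB-3 peak close by was 0.02, and that of kept wide peaks 0.02. These differences between classes were not tested.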

How the data were processed

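Per the labels and the study's methods, duplicate ChIP-seq reads were mapped by the authors to mm9 with BWA and merged, MACS2 was run on the merged reads with input as control, and the positions alone were deposited. RNA-seq reads were aligned to mm10 with Bowtie, and the authors deposited raw counts per Ensembl gene. Genes were assigned to peaks by the authors with GREAT, which the study's methods restrict to a short window around the transcription start. The annotation used here does not keep to that window throughout, since peaks assigned to Zbtb2 start at 5958995 and 6012220 on chromosome 10 (mm9). An assigned gene may thus lie far from its peak. Versions of BWA, MACS2 and Bowtie, the annotation behind the counts and whether counting used strand are not given in the sources used here. Peak starts were raised by 1. Members, gene lists and tests were chosen with earlier results of these data known.

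Library totals were 46863700 to 51137896 counts in DMSO and 42270312 to 49334434 in MB-3. Of 30677 genes, 20027 passed filterByExpr. MB-3 was compared with DMSO with edgeR 4.0.16 in R 4.3.3 (TMM, glmQLFit, glmQLFTest, treatment as the only term) and Benjamini-Hochberg adjustment at 0.05. In simulated data of 19757 genes for this comparison, 86.4% of changed genes were called and 9.04% of calls were unchanged genes. The changes put into the simulation were 2-fold or larger. The share called therefore does not apply to smaller changes, such as those of the assigned genes. RPKM used TMM-scaled library sizes and exon lengths of GENCODE M21 on GRCm38. Gene names were matched by GENCODE symbol (360) or RefSeq synonym (17), and 3 were not matched. Genes named were those called, the 5 highest and 5 lowest changes with separate groups, the 5 highest levels, and list members, and Irgm1, Pmp22, Ntn1 and the genes with 2 peaks were picked after their values were seen. Alternatives were RLE size factors, no filter, DESeq2, a replicate block by letter, each library omitted in turn, other limits of the peak rule, and only genes with no other peak. Results for some genes are not reported here.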

Additional observations from a re-analysis of the deposited data

How the results depend on the processing

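The number of lost isolated peaks ranged from 1710 (width under 500 bp) to 2696 (a wider width limit) over 6 other limits of the rule, and the median log2 fold change of assigned genes stayed from -0.02 to -0.00 in all alternatives run. The number of calls depended on the processing. Without a filter on low counts 3 assigned genes were called lower (Csrp1, Irgm1 and Ntn1), and DESeq2 called 1 lower (Ntn1). Over all genes these alternatives called 194 and 192, beside 41 in the main test. Leaving out 1 library gave 0 to 2 assigned genes called higher and 0 to 9 called lower, and the median level was 5.05 to 5.09 RPKM, beside 4.97 RPKM with all libraries. Without DMSO B, 520 of all genes were called, and without MB-3 A or MB-3 B none. Letters are shared by both groups. The correlations of same-letter deviations were 0.0982 for A, 0.261 for B and 0.213 for C, and those between different letters ran from -0.21 to -0.0174. The value for A fell just short of the limit set for pairing, so the main test had no block. Each library nevertheless correlated best with its own letter, so a pairing of the cultures remains possible. With a replicate block, 10 of 368 assigned genes were called higher, beside 644 of all 20027, and 25 lower, beside 781 of all 20027 (both directions together 9.51% and 7.12%), and 1 of these, Bcl11a, was called without it. Genes called with the block and not without it included Csrp1, Irgm1, Pmp22, Hs3st3b1, Pid1, Tmbim1, Ntn1, Slc35f5, Sar1b, Marc2, Cstb and Tfcp2l1, all lower, and Rad50, Fzd7, Usp44, Zbtb2, Rabgap1l and Aff3, all higher. Bcl11a kept its sign in all alternatives run, whereas 36 of 134 genes assigned to lost isolated peaks and listed or named, all 36 with a log2 fold change of at most 0.11 in size and none called, changed sign when a library was left out, with values rounded to 2 decimals and those of 0.00 not counted. Among those described, the log2 fold change then ranged from -0.02 to 0.10 in Prdm14, from -0.01 to 0.08 in Sdhc, from -0.03 to 0.07 in Nipsnap1, from -0.08 to 0.07 in Sf3b5 and from -0.04 to 0.06 in Tada1. Kat2a, which was not assigned a lost isolated peak, ranged from -0.03 to 0.04, and Sirt6, at 0.00, from -0.05 to 0.08. The cause of these differences was not tested.

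Peaks came from merged duplicates without heights or depth, so the loss of a call has no replicate check. Genes were assigned for 16.8% of the peaks, from 3 chromosomes.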
